A study of Homo sapiens with 6 samples.

Results

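The genes described here encode platelet surface glycoproteins and platelet granule proteins: GP1BB, GP1BA, GP9, GP5, GP6, ITGA2B, ITGB3, PF4 and PPBP, with SEPTIN5, the gene next to GP1BB. These 10 of 19821 protein-coding genes were chosen by name. GP1BB and SEPTIN5 were taken because a peak beside them was known to be among the strongest of the series by fold, so their peak strength is given as a description and not as a finding. For each gene the RefSeq gene body was extended by 20 kb on either side, and the peaks of acetylated NEIL1 (AcNEIL1) in that window were described. NEIL1 is a repair enzyme: it cuts oxidised bases out of DNA so that base excision repair can begin, and its acetylated form was immunoprecipitated here.

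The data were chromatin immunoprecipitation and sequencing (ChIP-seq) peak lists from HCT116, an established human colorectal carcinoma line, with no treatment named in the labels, harvested in exponential growth. There were 3 AcNEIL1 ChIP libraries, made with a custom rabbit antibody, and 3 input libraries of sheared chromatin, each paired by number with a ChIP library as its control. There was 1 condition, so the comparisons are between genes and between replicates, and none was tested. Whether the replicates came from separate cultures is not in the labels, and their spread may be technical only. After duplicate filtering the ChIP libraries held between 28814429 and 35222701 tags and the inputs between 32877739 and 37772127. On chromosomes 1 to 22 and X there were 39789, 60075 and 49609 peaks for replicates 1, 2 and 3. Replicate 2 had the longest list, the smallest ChIP library and the deepest input; the part of these in the results below was not tested. RNA was not measured, so the lists do not show whether any of these genes was transcribed in HCT116.

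Platelets stick to damaged vessel walls through the GPIb-IX-V complex, a receptor for von Willebrand factor built from the products of GP1BA, GP1BB, GP9 and GP5. GP6 encodes the platelet collagen receptor, and ITGA2B with ITGB3 encode the fibrinogen receptor through which platelets aggregate. PF4 and PPBP encode chemokines that platelets store in alpha granules and release when activated. SEPTIN5 encodes a filament-forming GTPase of neurons and platelets that has been linked to vesicle release, and transcription can run on from it into GP1BB. These genes are typical of megakaryocytes, the precursors of platelets, rather than of colon epithelium.

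The sequence just ahead of GP1BB is shown because the strong peak beside this gene left that stretch free in every replicate. The stretch spans the 219 bp between the annotated end of SEPTIN5 and the annotated start of GP1BB, chr22:19723320-19723538 on the plus strand. A stretch of GP9 is shown beside it, from its RefSeq promoter window (250 bp before to 50 bp after a start). Among the windows available for these genes, that was the only one with more than 9 bp under a peak. The stretch covers the 250 bp before the start used for that window, chr3:129060529-129060778 on the plus strand. This start lies inside the annotated span of GP9, 129054845 to 129062406, so the stretch is within the gene body. Both were selected after their peaks had been seen. They are from RefSeq, build GRCh38.p14, written 5′ to 3′, with each GATA, or TATC where the other strand reads GATA, in capitals; GATA is the core that GATA factors of megakaryocytes recognise.
GP1BB: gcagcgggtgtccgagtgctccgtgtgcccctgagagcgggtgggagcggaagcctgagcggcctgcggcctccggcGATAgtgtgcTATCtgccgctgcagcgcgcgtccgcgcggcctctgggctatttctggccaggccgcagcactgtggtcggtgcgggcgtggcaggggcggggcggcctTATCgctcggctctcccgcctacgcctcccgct
GP9: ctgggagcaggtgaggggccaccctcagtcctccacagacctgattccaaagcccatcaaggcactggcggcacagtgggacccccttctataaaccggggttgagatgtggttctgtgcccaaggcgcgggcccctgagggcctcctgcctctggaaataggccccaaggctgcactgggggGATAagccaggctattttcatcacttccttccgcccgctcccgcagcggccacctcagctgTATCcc

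None of the 219 bp ahead of GP1BB lay under a peak in any replicate. The stretch held 1 GATA, 2 TATC, 2 GGGCGG on either strand and 27 CG dinucleotides, with a GC content of 73.1%. Of the 250 bp shown for GP9, 209 bp lay under a peak in replicate 3 and none in replicates 1 and 2. That replicate 3 peak was weak, with fold 2.46, pileup 16.2 and −log10 q 1.68. By fold it ranked 48010 of 49609. That stretch held 1 GATA, 1 TATC, 8 CG dinucleotides and 62.8% GC. Promoter windows were at hand for 6 of the 10 genes. GATA on either strand occurred in all 6, between 1 and 4 times, and in 49.7% of all 35116 promoter windows of this length. GGAA on either strand, the core bound by ETS factors, occurred in all 6 and in 95.5% of all windows. GGGCGG on either strand occurred in the windows of GP1BB (2 copies), GP9 and GP6 (1 copy each), and in 45.0% of all windows. CG dinucleotides numbered 33 in the GP1BB window, 12 in that of GP6, 8 in that of GP9 and 1 or 2 in those of GP5, ITGA2B and PPBP, against a median of 14. A match of letters is a description of the window and not a binding site. The windows of GP5, GP6, ITGA2B and PPBP had no base under a peak in any replicate, and that of GP1BB had its last 9 bp under a peak in replicate 2. None of these 6 windows therefore had a peak in as many as 2 replicates; those of SEPTIN5, GP1BA, ITGB3 and PF4 were not analysed here.

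The members fell into 3 kinds by their peaks. SEPTIN5 and GP1BB lay in a dense run of peaks in every replicate. GP1BA, GP9, GP5, ITGA2B and ITGB3 had a few peaks, mostly of ordinary strength, and GP6, PF4 and PPBP had none. The highest fold outside the SEPTIN5 and GP1BB window was 5.37, at ITGA2B in replicate 3, and ranked 1320 of 49609. A peak within 20 kb of the gene was present in all 3 replicates for 7 of 10 members, against 41.1% of all protein-coding genes. GP6, PF4 and PPBP had none in any replicate, as had 36.7% of all protein-coding genes. In the gene body 6 members had a peak in at least 2 replicates, against 28.3% of all genes, and 3 (SEPTIN5, ITGA2B and ITGB3) had one in all 3, against 20.7%. At a gene end, meaning within 1000 bp of either annotated end, 4 members (GP1BB, SEPTIN5, GP9 and ITGA2B) had a peak in at least 2 replicates, against 15.2% of all genes. GP1BB, SEPTIN5 and GP9 had one in all 3, against 9.03%. The members were chosen with these peaks known, and SEPTIN5 and GP1BB share theirs, so nothing is read from these shares.

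**Figure D1:**
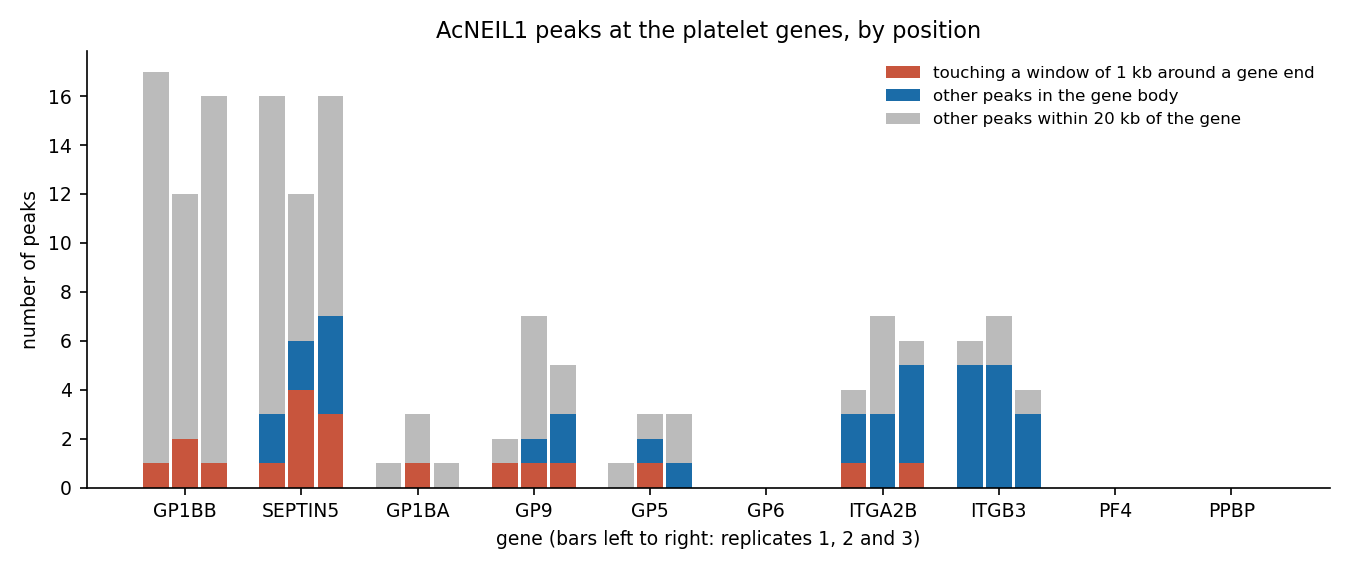
Number of AcNEIL1 peaks (y axis) in each gene and 20 kb on either side, with 3 bars per gene for replicates 1, 2 and 3. Colours separate peaks that touch a window of 1 kb around a gene end, other peaks in the body and other peaks in the flanks; SEPTIN5 and GP1BB, whose windows overlap, had 12 to 17 peaks a replicate, and GP6, PF4 and PPBP had none.

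The windows of the 10 genes merged into 8 stretches of 454 kb in all and held 31, 39 and 35 different peaks in the 3 replicates (mean 35.0 ± 4.00, SD, n = 3). These were 0.0779%, 0.0649% and 0.0706% of each list. The median fold in the windows, the authors' ratio of pileup + 1 to local background + 1, was 3.48, 3.59 and 3.65, beside 3.42, 3.40 and 3.61 over all peaks. Most of these peaks were thus of ordinary strength. Median width was 502, 598 and 323 bp, beside 401, 478 and 384 bp, so the windows' peaks were wider than the list's median in replicates 1 and 2 and narrower in replicate 3. Merging overlapping peaks of the 3 lists gave 56 regions, of which 9 were present in all 3 replicates, 9 in 2 and 38 in 1. Of the 9 regions found in every replicate, 4 lay in the window of SEPTIN5 and GP1BB, 2 each in those of ITGA2B and ITGB3 and 1 in that of GP5. The windows of GP1BA and GP9 held none.

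GP1BB, which encodes the beta chain of glycoprotein Ib, is 1233 bp long and lies on chromosome 22 at 19723539 to 19724771 (hg38, plus strand). The strongest peak near it spanned 19724900 to 19728502 in replicate 1, 19723580 to 19730053 in replicate 2 and 19724181 to 19729854 in replicate 3. It began 129 bp past the annotated end of GP1BB in replicate 1, and in replicates 2 and 3 it began 41 and 642 bp inside the gene. The peak therefore covered 0%, 96.7% and 47.9% of the GP1BB body. Its summit lay past the gene in every replicate, 2075, 1523 and 1583 bp beyond the annotated end, and the 3 summits fell within 552 bp of each other. The peak was thus highest downstream of GP1BB and not at its start.

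The stretch under the peak in all 3 replicates was 3603 bp long, 19724900 to 19728502, which is the whole of the replicate 1 peak. It covers most of the 2949 bp between GP1BB and LOC105372861, a long non-coding RNA gene, of which 95.7%, 100.0% and 100.0% were under the peak in replicates 1, 2 and 3. The peak ran 781, 2332 and 2133 bp into LOC105372861, while its summits stayed 875, 1427 and 1367 bp short of it. RefSeq places no protein-coding gene at any of the summits.

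Height and width of this peak differed between the replicates. Its pileup at the summit, counted in tags extended to the fragment length, was 75.0 in replicate 1, 112.0 in replicate 2 and 66.8 in replicate 3, a mean of 84.6 ± 24.1 (SD, n = 3). Divided by the tags, in units of 1000000, of the smaller library of each pair, to which the caller scales, pileup was 2.35, 3.89 and 1.99. Replicate 2 was the highest on both scales, and replicates 1 and 3 lay closer together. The local background recovered from pileup and fold was 8.74, 7.63 and 5.73 tags, above the list medians of 4.94, 5.34 and 4.48. Fold was 7.80, 13.1 and 10.1, a mean of 10.3 ± 2.65 (SD, n = 3), so replicate 3 exceeded replicate 1 in fold although its pileup was lower. By fold the peak ranked 19 of 39789, 1 of 60075 and 3 of 49609. By pileup it ranked 140, 109 and 146, so more than 100 peaks of each list were taller, most of them with a lower fold. Width was 3603, 6474 and 5674 bp, a mean of 5250 ± 1482 (SD, n = 3), which ranked 113, 248 and 40.

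**Figure D2:**
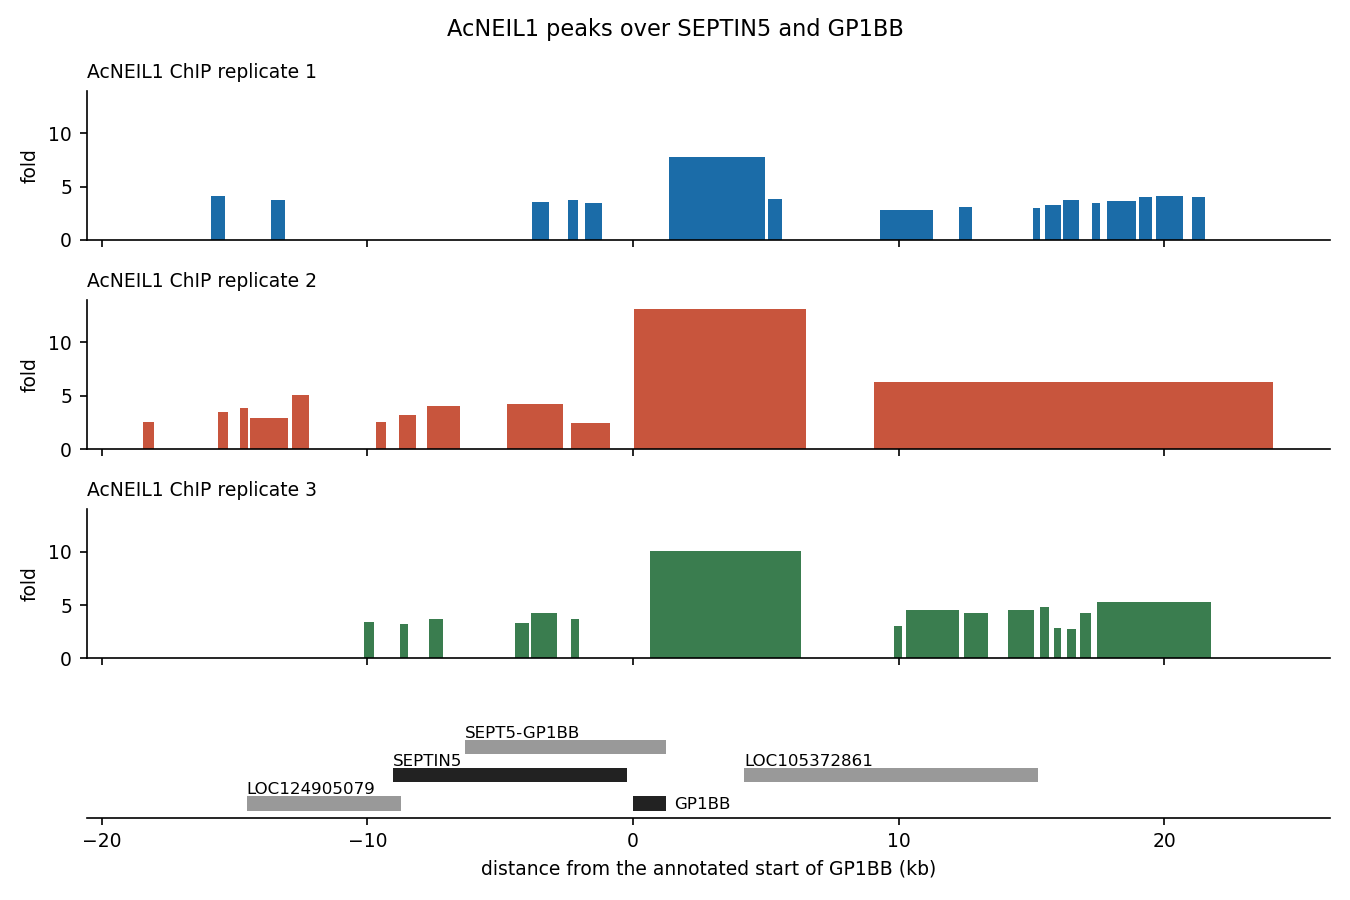
Peaks over SEPTIN5 and GP1BB in replicates 1, 2 and 3 (upper 3 panels), drawn as bars as wide as the peak and as high as the authors' fold, against the distance in kb from the annotated start of GP1BB. The lower panel shows RefSeq genes (black, protein-coding; grey, long non-coding RNA); the highest bar in each replicate, of fold 7.80, 13.1 and 10.1, lies mostly to the right of GP1BB.

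SEPTIN5 occupies 8817 bp, 19714503 to 19723319, and carried weaker and narrower peaks along its body. Replicate 1 had 3 body peaks covering 19.3% of the gene, replicate 2 had 4 covering 62.2% and replicate 3 had 5 covering 29.6%. The strongest body peak had a fold of 3.70, 4.19 and 4.23 and the highest pileup in the body was 24.0, 39.0 and 25.8. Replicate 2 thus covered the most of the gene, while its strongest body fold was close to that of replicate 3. Just inside the lower-coordinate end of SEPTIN5, replicates 2 and 3 had a peak each at 19714732 to 19715375 (merged), with folds of 3.21 and 3.19 and summits 15 bp apart, and replicate 1 had none there. They also shared a region at 19715763 to 19717027, with fold 4.00 and 3.68. Inside the gene, a region at 19718800 to 19720913 was found in every replicate, with fold 3.55, 4.19 and 4.23. The next region, 19721071 to 19722668, was also in every replicate, with fold 3.70, 2.48 and 3.72. Both lie inside SEPTIN5 and inside SEPT5-GP1BB, the read-through transcript that RefSeq annotates from 19717220 to 19724774. The gene-end peak of SEPTIN5 is its own only in part. In replicates 2 and 3 the window around its upper end was reached by the strong peak of GP1BB, at fold 13.1 and 10.1, whereas in replicate 1 the gene-end peak of SEPTIN5 had a fold of 3.46.

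From the start of SEPTIN5 to the end of GP1BB, 10.3 kb, peaks covered 16.6%, 65.1% and 31.1%, or 1700, 6680 and 3197 bp. Only replicates 2 and 3 brought the strong peak into this span. The strongest peak touching it had a fold of 3.70, 13.1 and 10.1 (mean 8.96 ± 4.80, SD, n = 3) and a pileup of 24.0, 112.0 and 66.8 (mean 67.6 ± 44.0, SD, n = 3). With the span carried 1000 bp past the end of GP1BB, an alternative added after the peaks had been seen, the mean fold was 10.3 ± 2.65 and the mean pileup 84.6 ± 24.1 (SD, n = 3). Fold and pileup thus spread less once the longer span took in the strong peak of replicate 1. The spread of covered length did not shrink, with 3859 ± 2555 bp in the annotated span and 4816 ± 2610 bp in the longer one (SD, n = 3). Counting only peaks with their summit in the span gave a mean fold of 4.04 ± 0.294 (SD, n = 3).

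The run of peaks went on past GP1BB and was sparser before SEPTIN5. In the 20 kb above GP1BB, peaks covered 56.1%, 87.2% and 71.6% (mean 71.6% ± 15.5, SD, n = 3), and in the 20 kb below SEPTIN5 they covered 5.26%, 17.5% and 1.84% (mean 8.21% ± 8.24, SD, n = 3). The 2 sides did not overlap in any replicate. A second region found in every replicate reached from 19732622 to 19747636, over the upper-coordinate part of LOC105372861 and beyond. Replicate 2 had 1 peak of 15015 bp there, with pileup 47.0 and fold 6.27, while replicates 1 and 3 had 10 and 9 shorter peaks with a strongest fold of 4.10 and 5.28, covering 7377 and 9766 bp. These figures take in only peaks that touch the 20 kb window, which ends at 19744771, short of the end of the replicate 2 peak. From there to the start of TBX1, 11.9 kb, replicates 1, 2 and 3 had 9, 7 and 10 peaks, with a strongest fold of 4.76, 6.27 and 5.28, where the replicate 2 and 3 values are those of peaks already counted. Up to the window's end the stretch was thus called as 1 peak in replicate 2 and in pieces in the others. In the joint window replicate 2 had the fewest peaks (12, against 17 and 16) and the most bases under peaks (54.9%, against 27.8% and 35.6%). From the end of GP1BB to the start of TBX1, the next protein-coding gene, 31.9 kb, peaks covered 55.3%, 85.0% and 61.7%.

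Among all protein-coding genes, the GP1BB window of gene and flanks ranked near the top for cover. Peaks covered 33.9%, 67.0% and 43.4% of it (mean 48.1% ± 17.0, SD, n = 3), and 16 genes had a higher mean; for SEPTIN5 the mean was 37.9% ± 14.1 (SD, n = 3) and 65 genes were higher. The median gene had 0.35%. GP1BB and SEPTIN5 were chosen with the strong peak known, and that peak is part of this cover, so these ranks are a description. By the folds of the strongest gene-end peak in the 3 replicates, the genes most like GP1BB among 1788 with such a peak in every replicate were MYADML2, PHYHIP, DNAAF19, FAM187A and PERM1, at a Euclidean distance of 0.83 to 0.94 on the log2 scale. MYADML2 had folds of 7.55, 8.73 and 6.68, all below those of GP1BB. PERM1, which encodes a muscle regulator of energy metabolism, had 5.11, 9.28 and 7.05. DNAAF19 and FAM187A overlap and shared their peak. SEPTIN5 shares the peak of GP1BB and was left out of this ranking.

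The other subunits of the GPIb-IX-V complex had peaks mostly of ordinary strength. GP9, which encodes glycoprotein IX, lies on chromosome 3 at 129054845 to 129062406 (plus strand). The start used for its promoter window lies inside that span. A peak touched the window around its upper end in each replicate, with fold 3.25, 3.35 and 3.98, pileup 18.0, 33.0 and 22.9, and width 596, 1007 and 802 bp. These were not one site: the replicate 1 peak began 308 bp past the gene and met neither of the others, while those of replicates 2 and 3 overlapped within the gene, at 129060975 to 129062278 after merging, with summits 94 bp apart. In the body, replicates 1, 2 and 3 had 0, 2 and 3 peaks. Across its window GP9 had 2, 7 and 5 peaks, with a strongest fold of 3.25, 4.69 and 3.98. Of 12 merged regions 1 was in 2 replicates and 11 in a single one.

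GP5 encodes glycoprotein V and lies on chromosome 3 at 194394821 to 194399266 (minus strand). Its window held 1, 3 and 3 peaks. A region at 194384054 to 194385260 was present in all 3 replicates, with fold 4.20, 3.98 and 2.87 and pileup 21.0, 21.0 and 21.9. It lay 9.97, 9.56 and 10.4 kb beyond the downstream end of the gene, at no annotated gene. Within GP5 the peaks of replicates 2 and 3 overlapped at 194397093 to 194397518, with fold 3.83 and 3.63, and replicate 1 had no peak in the body. Replicate 2 had a further body peak of fold 4.81, which also touched the window around the downstream end.

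GP1BA, which encodes the chain that binds von Willebrand factor, lies on chromosome 17 at 4932277 to 4935023 and had no peak in its body in any replicate. Replicate 2 had a peak of 338 bp, fold 3.07 and pileup 16.0, ending 138 bp below the lower-coordinate end of the gene, and replicates 1 and 3 had none within 15 kb. The other peaks of the window, 1, 2 and 1 in number, lay 15.6 to 17.9 kb above the gene inside ENO3, which encodes a muscle enolase, with folds from 2.23 to 4.06, and those of replicates 1 and 3 overlapped. The 4 genes of the one complex thus had different peaks: a strong peak past the end of GP1BB, weak peaks at GP9 and GP5 that were shared by at most 2 replicates in or at the gene, and a single weak peak beside GP1BA. GP1BB was taken because of that strong peak, so its contrast with the others was set by the choice and is a description.

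The 2 integrin genes each had 2 regions found in every replicate, 1 inside the gene and 1 outside it. ITGA2B, which encodes the alpha IIb chain, lies on chromosome 17 at 44372181 to 44389649 (minus strand) and had 2, 3 and 5 body peaks. A region at 44379378 to 44382029, near the middle of the gene, was in every replicate, with fold 3.08, 4.55 and 5.37 and pileup 20.0, 27.0 and 25.8. Its fold of 4.33 ± 1.16 (SD, n = 3) was the highest mean among the ITGA2B and ITGB3 regions found in all 3. A second region, 44382783 to 44383883, was in replicates 2 and 3 only, with fold 4.06 and 2.87. Beyond the downstream end of the gene, 44368746 to 44369540 was again in every replicate, with fold 3.35, 5.19 and 3.69, at a distance of 2.66, 2.64 and 3.11 kb; the replicate 2 peak joined those of replicates 1 and 3, which did not meet each other. Gene-end peaks were single: replicate 1 had one 785 bp ahead of the upstream end (fold 3.60), replicate 3 one inside the downstream end (fold 3.65) and replicate 2 none. The 2 gene-end peaks that place ITGA2B in the count above thus lay at opposite ends of the gene.

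ITGB3, which encodes the beta 3 chain, also a partner of the alpha V chain in other cells, spans 59917 bp on chromosome 17 at 47253827 to 47313743. It had 5, 5 and 3 body peaks and no gene-end peak in any replicate. All 13 body peaks lay in the upper-coordinate part, more than 29 kb from the lower-coordinate end. A region at 47309968 to 47311400 was in every replicate, with fold 3.40, 4.07 and 5.29 and pileup 21.0, 25.0 and 25.8; it also lies inside EFCAB13-DT, a long non-coding RNA gene. Replicates 1 and 2 shared a further region at 47298443 to 47299117 (fold 3.48 and 3.66), which replicate 3 lacked. Outside the gene, a region at 47238110 to 47238681 was in all 3 replicates, 15.3, 15.1 and 15.2 kb below the gene, with fold 2.52, 2.97 and 3.07. Its pileup was 26.0, 36.0 and 25.8. This was above that of the body region at 47309968 to 47311400 in replicates 1 and 2 and equal to it in replicate 3. Yet the region outside the gene had the lower fold in each replicate. Its local background was 9.71, 11.4 and 7.72 tags, against 5.46, 5.38 and 4.06.

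**Figure D3:**
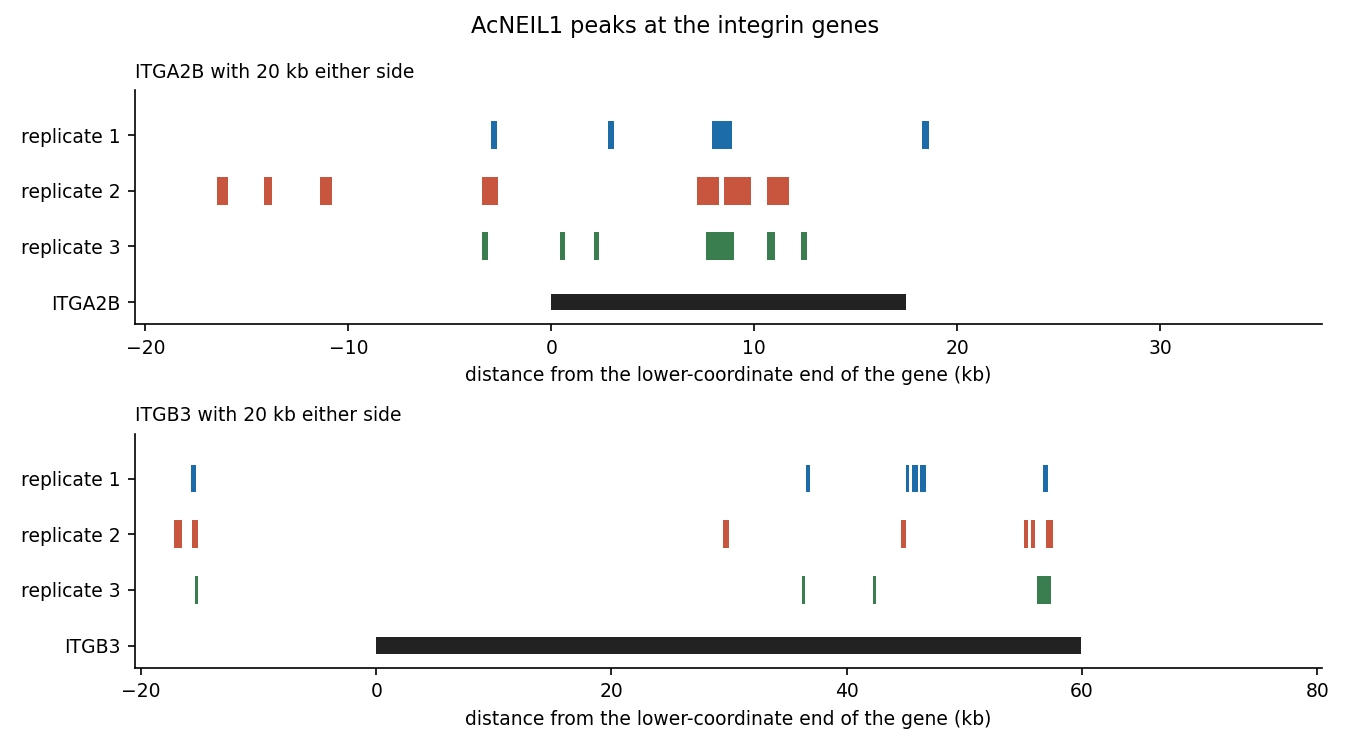
Peaks at ITGA2B and ITGB3 with 20 kb on either side, by replicate, against the distance in kb from the lower-coordinate end of the gene; coloured bars are peaks at their true width and the black bar is the gene. In ITGA2B the peaks near 8 kb recur in the 3 replicates, and in ITGB3 those near 57 kb and those 15.1 to 15.3 kb below the gene do.

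GP6 and the chemokine genes had no peak in reach. GP6, which encodes the platelet collagen receptor glycoprotein VI, lies on chromosome 19 at 55013705 to 55038264, and the nearest peak was 34.5, 28.9 and 29.2 kb away in replicates 1, 2 and 3. Within 500 kb of it there were 52, 86 and 70 peaks, so GP6 sat in a gap of a region that otherwise held many. PF4 (chromosome 4, 73980811 to 73982124) and PPBP (73986439 to 73988190) are neighbours, and the nearest peak to PPBP was 124, 317 and 376 kb away. Within 500 kb of PF4 the lists held 3, 1 and 3 peaks, against 100, 126 and 118 within 500 kb of GP1BB. At these depths nothing in these windows met the caller's q-value threshold; the lists hold no counts outside peaks.

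By cover of the window the members stood in the order GP1BB, SEPTIN5, ITGA2B (6.13% ± 3.56), GP9 (4.31% ± 2.36), GP5 (2.76% ± 2.09), ITGB3 (2.69% ± 0.742) and GP1BA (1.85% ± 1.99; SD, n = 3 for each), with GP6, PF4 and PPBP at 0. GP1BB and SEPTIN5 share most of their window. From ITGA2B to GP1BA, the means of neighbours in this order differed by less than the larger SD of each pair. Replicate 2 was the highest for each gene from ITGA2B to GP1BA. Within replicates, ITGA2B was above GP9 in all 3 (3.36% and 2.09%, 10.1% and 6.78%, 4.88% and 4.06%), and GP9 was above GP5 in all 3 (GP5 0.913%, 5.02% and 2.33%). ITGB3 was below GP5 in replicates 2 and 3 and above it in replicate 1, and above GP1BA in replicates 1 and 3 but not in replicate 2. Between 67.4% and 82.4% of all protein-coding genes had less cover than each of these 5. The strongest fold in the window was 4.72 ± 0.976 for ITGA2B, 4.52 ± 0.670 for ITGB3, 4.27 ± 0.511 for GP5, 3.97 ± 0.723 for GP9 and 3.21 ± 0.921 for GP1BA (SD, n = 3). Each of these means again differed from the next by less than the larger SD of the pair. In each replicate the strong peak of GP1BB exceeded every peak of these 5 genes in fold, pileup and width. GP1BB was chosen with its high fold known, so this contrast is a description.

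**Figure D4:**
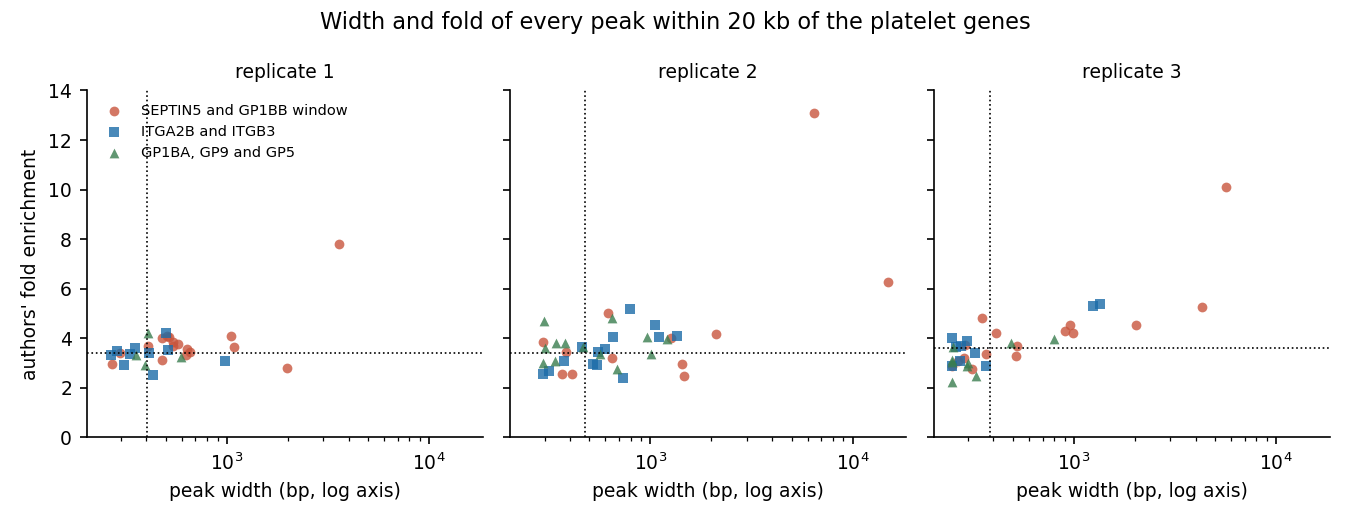
Width (x axis, bp, log scale) and authors' fold (y axis) of every peak within 20 kb of the platelet genes, one panel per replicate and 1 point per peak; dotted lines mark the medians of the whole list. The highest point in each panel belongs to the SEPTIN5 and GP1BB window, at fold 7.80, 13.1 and 10.1. In replicate 2 a further point of this window lies at 15015 bp and fold 6.27. The other genes' points lie at fold 5.37 or below.

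Other genes of platelets and megakaryocytes were taken from 3 lists. Of 26 genes of platelet receptors and their signalling, 12 (46.2%) had a gene-end peak in at least 2 replicates and 10 had one in all 3. The strongest were at PEAR1, an endothelial and platelet receptor (fold 6.16, 4.20 and 6.31), F2RL3, a thrombin receptor (3.99, 7.02 and 5.17), P2RX1, an ATP-gated channel (4.27, 5.78 and 4.62), and MPIG6B, an inhibitory receptor of megakaryocytes (4.44, 5.22 and 4.30). Of 18 transcription factor and cytoskeleton genes of megakaryocytes, 5 (27.8%) had one. NFE2 (4.71, 4.66 and 5.45), GATA1 (5.04, 5.08 and 4.20), TAL1 (3.48, 3.74 and 5.99) and ZFPM1 (3.17, 3.68 and 3.35), which encodes a partner of GATA1, had one in all 3. Of 22 genes of granule and secreted proteins, 3 (13.6%) had one, and VAMP8, which encodes a protein of granule release, had it in every replicate (3.42, 3.44 and 4.02). Over all protein-coding genes the share was 15.2%. By count, receptor genes had gene-end peaks more often than granule genes, a difference that was not tested. The lists were chosen with earlier results of these data known, so nothing is read from it. A body peak in at least 2 replicates was found for 61.5% of the receptor genes. For the transcription factor and cytoskeleton genes this share was 66.7%, and for the granule genes 36.4%, against 28.3% of all protein-coding genes.

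The relatives of SEPTIN5 and of the integrin genes were listed too, again with earlier results of these data known. Of 12 other septin genes, 4 (33.3%) had a gene-end peak in at least 2 replicates; SEPTIN3 (fold 3.08, 5.18 and 3.51) and SEPTIN1 (4.03, 3.11 and 3.67) had one in all 3. None of these folds reached that of the strong peak past GP1BB in the same replicate. That peak touched a gene-end window of SEPTIN5 only in replicates 2 and 3. In replicate 1 the gene-end peak of SEPTIN5 had a fold of 3.46, below SEPTIN1 (4.03) and above SEPTIN3 (3.08). SEPTIN5 was chosen with the strong peak known. Of 21 other integrin chain genes, 2 (9.52%) had a gene-end peak in at least 2 replicates, while 12 (57.1%) had a body peak, against 15.2% and 28.3% of all protein-coding genes. Gene length was not allowed for in the shares with a body peak, and its part in them was not tested. ITGA2B and ITGB3 each had 1 body region in all 3 replicates, beside 1 outside the gene. ITGA11, an alpha chain of a collagen receptor, was the integrin gene with a gene-end peak in every replicate (3.04, 6.35 and 3.03).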

How the data were processed

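AcNEIL1 ChIP libraries of HCT116 (replicates 1 to 3) were compared through 1 deposited peak table each; groups and numbers came from the sample titles. Per the file headers, the authors called peaks with MACS 2.1.1.20160309 for each replicate against its own input, without pooling, in hg38, single-end, at a q-value of 0.05, with at most 2 tags kept per position and the larger library scaled to the smaller. The deposited pileup is a signal in extended tags (fragment length 268, 294 and 249 bp), which depends on that scaling. The deposited fold is a ratio to the local background, and the deposited −log10 p and −log10 q are the caller's. Trim Galore, FastQC, cutadapt, Bowtie2, SAMtools and bedtools are named in the submitters' processing notes, with versions and roles not given in the sources used here.

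Gene positions came from the RefSeq table of GRCh38.p14 (scaffold rows left out), and all 10 members matched. An overlap of at least 1 bp counted. Coordinates are 1-based. Strand was known only where a promoter window was given. The overlap code (Python 3.11.15, pandas 2.3.3) was tested on simulated data. The members and lists were chosen with earlier results of these data known. Named genes were the members, up to 4 genes of each of 5 lists with a gene-end peak in every replicate, genes within 20 kb of SEPTIN5 or GP1BB, and the 5 genes nearest to GP1BB in fold; TBX1, ENO3 and EFCAB13-DT were added after their values were seen. Promoters were to be described for members with a peak there in at least 2 replicates; none of the 6 members with a promoter window qualified, the other 4 could not be checked, and the 2 printed stretches were chosen later. No test was run.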

Additional observations from a re-analysis of the deposited data

How the results depend on the processing

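Alternatives were run for 3 counts of members, for the number of peaks, and for fold, pileup and covered length from SEPTIN5 to GP1BB. Of 50 values outside the leave-one-out settings, 37 moved by at most 1.5 times (counts) or by less than 1 SD, and 13 moved more. The SD is that of the main setting, which was wide for pileup (67.6 ± 44.0) and covered length (3859 ± 2555 bp). A mean pileup of 29.6, with the summit or 50% of the peak required inside the span, therefore counts among the 37. Members with a gene-end peak numbered 6, exactly 1.5 times, with a window of 5000 bp or with 1 replicate required.

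With −log10 q of 5 or more, 3 members kept a peak within 20 kb in every replicate and the mean number of peaks was 15.7. With the 5000 peaks of highest fold, 2 members had a gene-end peak and 1 a body peak in at least 2 replicates, 2 had a peak within 20 kb in every replicate, the mean number of peaks was 4.00 and the mean covered length 594 bp; in both settings fewer peaks were admitted. Asking for all 3 replicates left 3 members with a body peak, and flanks of 50 kb gave 75.0 peaks. Mean fold over the span was 4.04 with the summit, or 50% of the peak, required inside and 3.75 as the median of all peaks there; each leaves out the strong peak or its weight. Pileup divided by tags, in units of 1000000, was 2.21, another scale.

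Without 1 replicate, members with a gene-end peak numbered 3 to 4, those with a body peak 3 to 6 (3 without replicate 2 and 3 without replicate 3) and those with a peak within 20 kb 7. The rule of at least 2 replicates here asked for a peak in both replicates that remained, a stricter demand than with all 3. Mean peaks ranged from 33.0 to 37.0, fold from 6.89 to 11.6, pileup from 45.4 to 89.4 and covered length from 2448 to 4938 bp. No paired analysis was possible because there was 1 condition, and the inputs entered only as controls within each table; values of genes within each replicate are set side by side in the report.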
